A study of Mus musculus with 12 samples.

Results

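The genes described here encode the proteins of the cytosolic ribosome, which are assembled with ribosomal RNA into a small and a large subunit, as measured in mouse kidney. They were chosen from the gene table by name: protein-coding genes called Rpl or Rps with a number, plus Rpsa, Rplp0, Rplp1 and Rplp2, without the S6 kinase families Rps6ka and Rps6kb and without pseudogene names. The rule found 88 of the 52636 genes in the table. Of these, 43 encode large-subunit proteins, 3 encode the P-stalk of the large subunit and 31 encode small-subunit proteins, and these 77 are called core genes here. Another 8 are paralogues of core genes (Rpl3l, Rpl7l1, Rpl10l, Rpl22l1, Rpl36al, Rpl39l, Rps27l and Rps27rt). The remaining 3 carry a matching name but do not encode ribosomal proteins: Rps6kc1 and Rps6kl1 are kinase-like genes, and Rps19bp1 encodes a protein that binds Rps19.

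Kidneys were taken from 8-week-old male mice of the wild-type C57BL/6 strain, and RNA-seq libraries were made in 4 groups, 3 libraries to a group. The cisplatin+PCN group received both drugs, the cisplatin group the platinum drug alone, the PCN group pregnenolone carbonitrile alone, and the control group the corn oil and saline vehicles. Cisplatin, which forms DNA adducts and injures the renal tubule, was a single intraperitoneal dose of 20 mg/kg. PCN, a synthetic steroid and agonist of the pregnane X receptor (PXR) in rodents, was given by mouth at 40 mg/kg daily for 4 days before cisplatin and 3 days after, and tissue was collected 4 days after cisplatin. The treatment text lists the cisplatin animals once with the PCN-pretreated and once with the oil-treated mice, so the groups are those of the library titles. All animals received oil or PCN in oil, every group is 1 sex, strain and time, and the labels do not say whether each library is a separate animal, so a p-value here reflects how far these libraries spread and nothing wider.

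Ribosomal protein transcripts are among the most abundant in most cells, and their proteins are needed in near-equal numbers. Many mammalian ribosomal protein mRNAs begin with a C followed by a run of pyrimidines, the 5′ terminal oligopyrimidine tract, through which the kinase mTORC1 controls their translation. When ribosome assembly fails, free Rpl5 and Rpl11 bind Mdm2, the ubiquitin ligase that keeps p53 low. In the kidney the proximal tubule, which makes up most of the cortex, takes up cisplatin and is its main site of injury.

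The start regions of 9 genes are shown because the tract at the first base is the feature these genes are known for. The first 6 begin with such a tract in the RefSeq annotation, and the last 3 are genes with large changes below that do not. Each line has the 60 bases before and the first 15 bases of the annotated transcript, read 5′ to 3′ on the gene's strand, from RefSeq promoters on GRCm38.p6. Capitals mark the run of C and T that begins with C exactly at the annotated start.
Rps6 (chr4:86857353-86857427, minus strand): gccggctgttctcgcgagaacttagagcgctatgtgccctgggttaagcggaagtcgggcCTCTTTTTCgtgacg
Rps27 (chr3:90213634-90213708, minus strand): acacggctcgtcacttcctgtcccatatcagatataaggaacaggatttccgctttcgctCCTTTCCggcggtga
Rps18 (chr17:33955651-33955725, minus strand): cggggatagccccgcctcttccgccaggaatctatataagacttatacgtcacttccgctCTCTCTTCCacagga
Rps10 (chr17:27635230-27635304, minus strand): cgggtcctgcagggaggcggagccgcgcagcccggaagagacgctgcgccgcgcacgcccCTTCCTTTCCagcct
Rpl15 (chr14:18270972-18271046, minus strand): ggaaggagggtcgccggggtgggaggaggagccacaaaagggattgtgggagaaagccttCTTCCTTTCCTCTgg
Rpl35 (chr2:39005117-39005191, minus strand): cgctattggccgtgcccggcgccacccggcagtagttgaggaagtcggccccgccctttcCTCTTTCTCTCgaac
Rps27l (chr9:66946026-66946100, plus strand): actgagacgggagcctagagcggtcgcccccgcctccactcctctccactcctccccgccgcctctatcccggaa
Rps12 (chr10:23787195-23787269, minus strand): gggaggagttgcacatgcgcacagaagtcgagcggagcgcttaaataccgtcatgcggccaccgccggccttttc
Rplp0 (chr5:115559407-115559481, plus strand): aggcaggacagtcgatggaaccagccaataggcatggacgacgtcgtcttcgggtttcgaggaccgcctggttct

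RefSeq promoters matched 68 of the 88 members by symbol, 57 of them core genes. A run of at least 5 bases of C or T that begins with C exactly at the annotated start was present in 14 members (20.6%) and in 13 core genes (22.8%), against 3.01% of the 27025 genes with a RefSeq promoter. With the run allowed within 10 bases of the start, the shares were 61.8% of members, 59.6% of core genes and 34.4% of all genes. In the Rps12 line the run lies downstream of the annotated start, at the end of the sequence shown. Over the 250 bases before and 50 after the start, on both strands, the letters CCGGAAGT (an ETS-factor motif) were found in 19.1% of members and 4.31% of all genes, and AAGATGGC (a YY1 motif) in 8.82% and 3.19%. The letters TATAAA were found in 10.3% of members and 15.7% of all genes. None of these 3 letter strings contains another, and a match describes the letters only.

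Levels are given as FPKM, the fragments per kilobase of gene, scaled by a total for each library. That total differs from the reads recovered in genes, as described under data processing. Core genes spanned a wide range. Their median level was 153 FPKM in cisplatin+PCN kidneys, 182 in cisplatin, 123 in PCN and 127 in control kidneys. The gene with the highest mean in every group was Rplp1, a P-stalk protein that recruits translation factors, at 1290 FPKM in cisplatin+PCN, 1625 in cisplatin, 920 in PCN and 973 in control kidneys. The lowest was Rpl24, a large-subunit protein, with group means from 0.723 to 1.202 FPKM. In the reference transcripts 80.1% of the 100-base windows of Rpl24 also occur in another annotated gene, most often in Gm28037, and how such reads were counted is not stated. The rank order of core genes by level was almost the same in cisplatin and control kidneys (Spearman 0.984 over 77 genes of the same table, a description only). Within a group, the coefficient of variation over the 3 libraries had a median over core genes of 5.03% in cisplatin+PCN, 3.99% in cisplatin, 3.11% in PCN and 3.34% in control kidneys. Rpl17 exceeded 20% in all 4 groups, and Rpl21, Rpl13a, Rpl24, Rps27a, Rpl7a and Rps29 exceeded it in at least 1.

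Each library held between 18914607 and 26530485 reads in genes, recovered from the FPKM values. All 13 proximal tubule marker genes were detected, with a summed level of 29547 to 34556 FPKM in control kidneys. That sum was 3343 to 8881 FPKM in cisplatin+PCN, 3363 to 3887 in cisplatin and 31763 to 35341 in PCN kidneys. Most of the sum in every library came from 1 gene, the tubule androgen-regulated gene Kap. Kap had 30031, 25052 and 27460 FPKM in the control libraries, so the sums mainly follow Kap and not the 13 genes alike. One library stood apart: cisplatin+PCN replicate 1 had the highest of the 3 proximal tubule sums in its group. It had 7707 FPKM of Kap against 2937 and 3239 in replicates 2 and 3. No batch is named in the labels. In whole tissue, fewer cells of a type and less RNA per cell cannot be told apart.

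Summed, the 88 genes held a larger share of all FPKM in kidneys that had received cisplatin. Their share was 3.92, 4.92 and 4.70% in the cisplatin+PCN libraries, 5.16, 5.56 and 5.53% in cisplatin, 3.04, 3.02 and 3.06% in PCN and 3.178, 3.199 and 3.242% in control libraries. Every library with cisplatin lay above every library without it, and the cisplatin+PCN libraries lay below the cisplatin libraries. The share averaged 5.42 ± 0.223% in cisplatin and 3.21 ± 0.0327% in control kidneys (SD, n = 3 each; exact permutation test, two-sided, p = 0.1, the smallest that 3 against 3 libraries allow). It averaged 4.51 ± 0.524% in cisplatin+PCN kidneys and 3.04 ± 0.0201% in PCN kidneys, and the exact permutation p was 0.1 for each of the other 4 pairs of groups compared. Without cisplatin+PCN replicate 1, the library with the lowest share of its group, the difference between cisplatin+PCN and cisplatin was -0.612 percentage points, against -0.908 with it. A share moves with every other gene in the sum, so single genes are compared below. The share of recovered reads that came from mitochondrially encoded genes, for one, was between 6.12 and 7.81% in libraries with cisplatin and between 8.78 and 10.03% in those without.

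**Figure D1:**
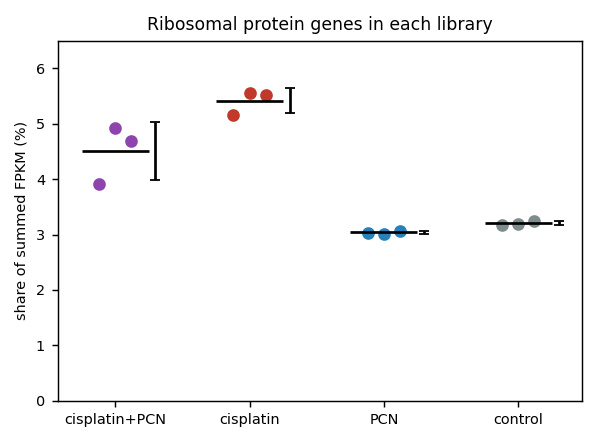
Share of summed FPKM held by the 88 genes (%, vertical axis) in each library of the 4 groups. Points are libraries, horizontal lines are group means and the bars beside them are 1 SD (n = 3); the cisplatin libraries sit between 5.16 and 5.56%, above the cisplatin+PCN libraries (3.92 to 4.92%) and the libraries without cisplatin (3.02 to 3.24%).

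The comparison of cisplatin with control kidneys asked what the drug did to these transcripts. Nearly all of them were higher after cisplatin, most by a similar and moderate amount. Of the 84 members that passed the expression minimum (1 FPKM or more in 3 or more of the 12 libraries), 74 rose, 2 fell and 8 did not pass limma's test at a Benjamini-Hochberg adjusted p of 0.05. Of all 13540 genes tested, 32.0% rose and 31.9% fell. The members' median change was 0.56 on the log2(FPKM + 1) scale, or 1.47-fold, with an interquartile range of 0.48 to 0.69, while the median over all tested genes was 0.01. Cisplatin and control libraries did not overlap, with cisplatin higher, in 76 members, against 33.6% of all tested genes. With the libraries rescaled to equal sums of FPKM, 76 members rose and none fell, while the median over all tested genes moved to 0.13.

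Both subunits were represented. All 31 small-subunit genes rose, with a median change of 0.61. Of the 46 large-subunit genes, P-stalk included, 42 rose and none fell (median 0.56, limma's test). Of the 4 large-subunit genes that did not pass, Rpl17 and Rpl13a varied by more than 20% among cisplatin or control libraries. Rpl7a had 61.6, 66.0 and 69.3 FPKM in cisplatin and 57.8, 58.5 and 59.9 FPKM in control kidneys. Its groups did not overlap, but the spread estimated over all 12 libraries took in PCN libraries from 47.9 to 83.9 FPKM (0.16 ± 0.18, adjusted p = 0.473, limma). Of the 77 core changes 56 lay between 0.4 and 0.8. Across core genes the rank correlation of the change was near 0 with level (Spearman -0.00308), with coding length (-0.0941) and with the share of reference windows found in other genes (0.0507), given as descriptions over 77 genes of the same libraries. The 20 core genes with at least 50% of windows shared had a median change of 0.55, with 19 higher, and the 57 with less had 0.57, with 54 higher. The 13 core genes with a tract at the annotated start had a median change of 0.56, with 12 higher, and the 44 without one had 0.59, with 42 higher.

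**Figure D2:**
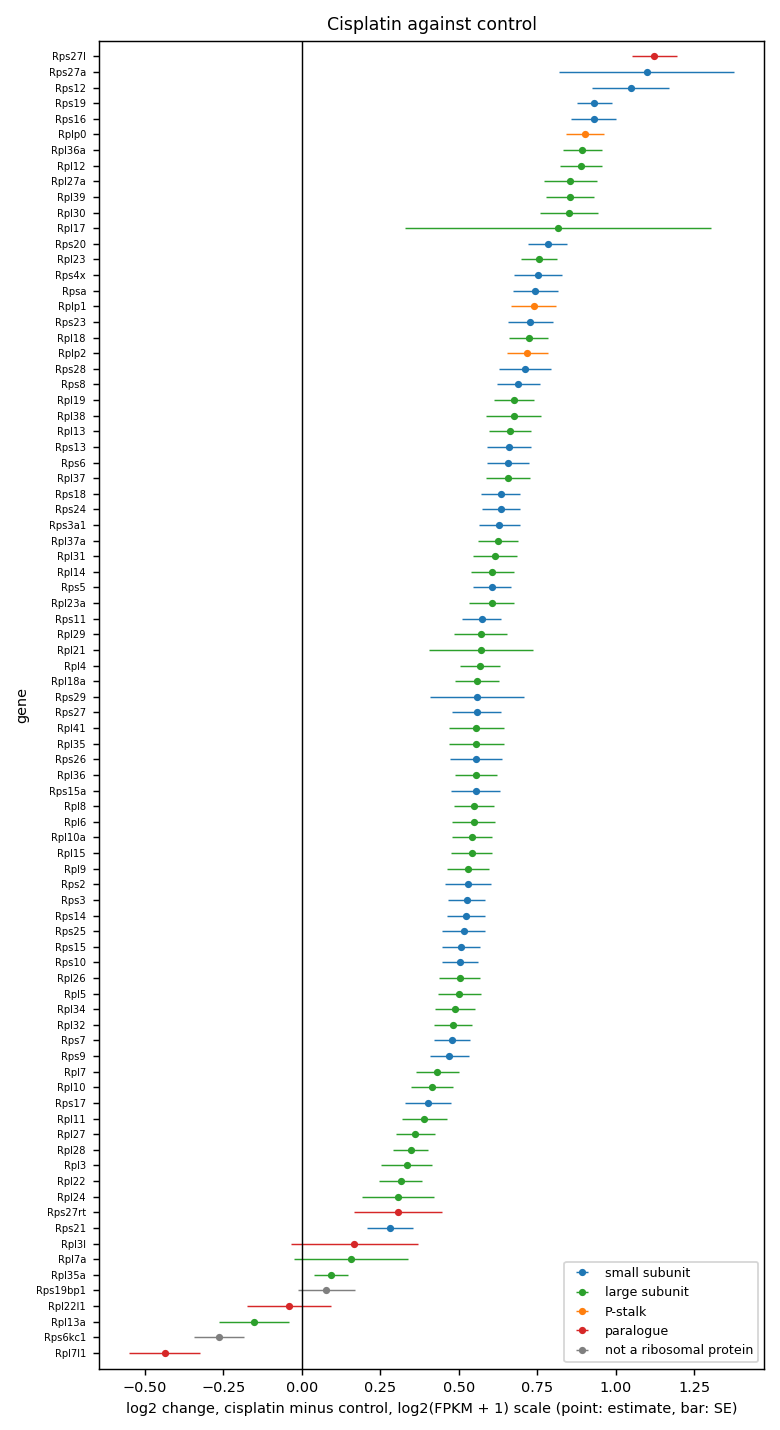
Cisplatin change of the 84 tested members (vertical axis), as cisplatin minus control on the log2(FPKM + 1) scale. Points are limma estimates, bars are 1 SE, colours give the subunit or class; the points of all small-subunit genes lie right of 0, and Rps27l has the largest change (1.12).

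The member with the largest change was the paralogue Rps27l (ENSMUSG00000036781, chr9:66946086-66949516), which is known in human cells as a p53 target. Rps27l had 501, 474 and 506 FPKM in cisplatin kidneys, against 238, 212 and 230 FPKM in control kidneys. The groups were far apart, and the ratio of means was 2.18, a log2 change of 1.12 ± 0.07 (SE; adjusted p = 3.87e-07, limma). Its parent gene Rps27 (ENSMUSG00000090733, chr3:90212522-90213651) had 249, 237 and 259 FPKM in cisplatin kidneys, against 164, 168 and 173 FPKM in control kidneys. It also rose, by 0.56 ± 0.08 (adjusted p = 0.000114, limma), close to the median of the list. In FPKM, Rps27l was the more abundant of the pair in both groups, though 40.1% of the reference windows of Rps27 and none of those of Rps27l occur in other genes. The intronless copy Rps27rt, of whose reference windows 89.5% occur in other genes, had 103, 143 and 122 FPKM in cisplatin and 99.5, 84.3 and 113 FPKM in control kidneys, and these overlap (0.31 ± 0.14, adjusted p = 0.0756, limma).

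Among small-subunit genes the largest changes were those of Rps27a, Rps12, Rps19 and Rps16. Rps27a (ENSMUSG00000020460), which encodes a ribosomal protein fused to ubiquitin, had 125, 94.4 and 123 FPKM in cisplatin and 45.1, 39.5 and 79.6 FPKM in control kidneys. The groups did not overlap, but the control libraries were widely spread, and the change of 1.10 had an SE of 0.28 (adjusted p = 0.00517, limma). Rps12 (ENSMUSG00000061983) had 86.8, 103 and 109 FPKM in cisplatin and 48.5, 43.9 and 50.3 FPKM in control kidneys (1.05 ± 0.12), with 56.4% of its windows shared. Rps19 (ENSMUSG00000040952, chr7:24884371-24889806), whose human gene is mutated in Diamond-Blackfan anaemia, had 110, 111 and 116 FPKM in cisplatin and 58.3, 58.1 and 58.7 FPKM in control kidneys. Its libraries were tight, so its change of 0.93 ± 0.06 had the smallest adjusted p of the list (2.80e-07, limma). Rps16 rose by 0.93 ± 0.07. Rpsa, the laminin-receptor homologue of the small subunit, rose by 0.74, Rps6, the substrate of the S6 kinases, by 0.66, and Rps3, which lines the mRNA entry channel, by 0.53. The smallest change of a small-subunit gene was that of Rps21, at 0.28, a gene singled out here after its value was seen.

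In the large subunit the P-stalk stood near the top. Rplp0 (ENSMUSG00000067274, chr5:115559467-115563727), the base of the stalk, had 779, 753 and 811 FPKM in cisplatin and 405, 422 and 426 FPKM in control kidneys. Every cisplatin library lay far above every control library, and the change was 0.90 ± 0.06 (adjusted p = 5.31e-07, limma). Rplp1 rose by 0.74 and Rplp2 by 0.72, so all 3 stalk genes lay above the list's upper quartile of 0.69. Rpl36a and Rpl12 rose by 0.89, and Rpl27a, Rpl30 and the short exit-tunnel protein gene Rpl39 by 0.85. Rpl23 rose by 0.75, Rpl41, which encodes the shortest ribosomal protein, by 0.56, and Rpl10, which joins the large subunit late in its assembly, by 0.41. Of the genes described above as binding Mdm2, Rpl5 rose by 0.50 and Rpl11 by 0.39, less than the median. Of the reference windows of Rpl5 82.7% occur in other genes, and of those of Rpl11 51.3%. Rpl26, which binds p53 mRNA in human cells, also rose by 0.50, Rpl3, at the peptidyl transferase centre, by 0.33, and Rpl22 by 0.31.

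The paralogues did not move as a class. Of the 5 that were tested, Rps27l rose, Rpl7l1 fell and Rps27rt, Rpl22l1 and Rpl3l did not pass. Rpl7l1 (ENSMUSG00000063888, chr17:46773907-46782656), a relative of Rpl7, had 25.6, 31.1 and 23.3 FPKM in cisplatin and 38.9, 36.3 and 33.8 FPKM in control kidneys (-0.44 ± 0.11, adjusted p = 0.00601, limma). Its groups did not overlap, and with values rescaled to equal sums the fall no longer passed (adjusted p = 0.108, limma). Rpl22l1, the paralogue of Rpl22, had 18.6, 14.1 and 17.1 FPKM in cisplatin and 15.7, 16.4 and 19.0 FPKM in control kidneys, overlapping groups (-0.04 ± 0.13). Rpl3l, a paralogue of Rpl3 known from striated muscle, was near the expression minimum, between 0.873 and 3.12 FPKM over all 12 libraries. The paralogues under the minimum were Rpl36al between 0.377 and 0.921 FPKM, Rpl39l between 0 and 0.334 FPKM, and the testis gene Rpl10l, listed at 0 in all but 1 library. Of the names that are not ribosomal proteins, Rps6kc1 fell by 0.26 (adjusted p = 0.0136, limma, but 0.133 when rescaled to equal sums), Rps19bp1 did not pass (0.08 ± 0.09) and Rps6kl1 was not tested.

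Among the core genes that did not pass, Rpl35a (ENSMUSG00000060636, chr16:33056453-33060189) had precise values: 63.1, 61.1 and 64.2 FPKM in cisplatin and 60.8, 58.5 and 57.1 FPKM in control kidneys. The groups were 1.07-fold apart in their means (0.09 ± 0.06, adjusted p = 0.164, limma). Rpl13a had 5.09, 7.31 and 4.84 FPKM in cisplatin and 6.37, 6.31 and 6.56 FPKM in control kidneys, the one core gene with a negative estimate (-0.15 ± 0.11). Rpl17 had 106, 177 and 206 FPKM in cisplatin and 57.7, 155 and 78.1 FPKM in control kidneys, so its estimate of 0.82 carried an SE of 0.49. Rpl24 passed (0.31 ± 0.12, adjusted p = 0.0366, limma), but its libraries held only 12 to 33 reads each. It met the expression minimum through 3 libraries, 2 of them with cisplatin.

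**Figure D3:**
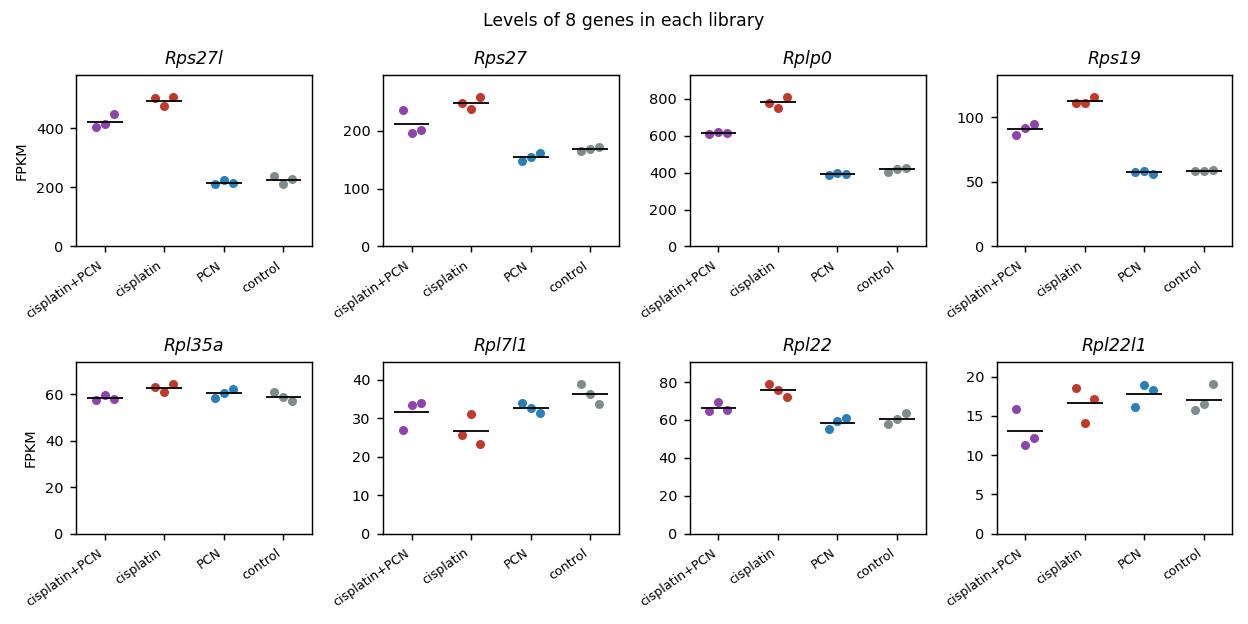
FPKM of 8 genes in each library, by group (points: libraries, lines: means of 3). Rps27l, Rps27, Rplp0 and Rps19 stand highest in cisplatin and next in cisplatin+PCN kidneys, Rpl35a stays between 57.1 and 64.2 FPKM, and Rpl7l1 is lower in cisplatin than in control kidneys.

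The proteins of the mitochondrial ribosome are encoded by a separate family, Mrpl and Mrps. Of its 77 tested genes 5 rose and 44 fell with cisplatin (median -0.28, limma's test), so most moved the other way from the cytosolic genes. For this and the lists that follow, 32.0% of all tested genes rose and 31.9% fell. Among ribosomal components outside the naming rule, Rack1, a scaffold on the small subunit, rose by 0.66 and Fau, a ubiquitin-like fusion with a small-subunit protein, by 0.41. Of 14 other translation genes known to carry the tract, 7 rose and none fell, among them Pabpc1, the poly(A)-binding protein gene, by 0.85 and Eef1b2 by 0.56. Of 30 initiation factor genes 16 rose and 4 fell. Eif6, which keeps the subunits apart and acts in large-subunit assembly, rose by 1.88, with 114 ± 5.15 FPKM in cisplatin and 30.1 ± 2.73 FPKM in control kidneys (SD, n = 3 each). Eif4a1 rose by 0.79 while its paralogue Eif4a2 fell by 0.84 on the log2 scale.

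Genes that build ribosomes are set here beside all tested genes, of which 32.0% rose and 31.9% fell. Of 47 tested biogenesis factors 24 rose and 4 fell. Their estimates were mostly positive (35 of 47), with a median of 0.23, and Gnl3 (nucleostemin) and Rrs1 each rose by 0.73. Of 16 genes for RNA polymerase I and its factors, which make ribosomal RNA, 6 rose and 2 fell, with Taf1d at 0.82. The 6 that rose are near the share over all tested genes. Of 23 tested genes of mTORC1 signalling 10 rose and 5 fell. The largest changes there were those of Ddit4 (3.53), a stress-induced inhibitor of mTORC1, and Eif4ebp1 (2.45), a translational repressor that mTORC1 inactivates. Of 11 tested genes of the Mdm2 and p53 axis 9 rose and 1 fell. Cdkn1a, the cell-cycle inhibitor p21, rose by 6.66, Myc, which drives ribosomal protein genes in growing cells, by 2.40, and Mdm2 by 1.84.

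Markers of cell types were read in the same comparison, in which 32.0% of all tested genes rose and 31.9% fell. All 13 proximal tubule genes fell. Of 10 tested macrophage genes 4 rose and 1 fell, and the 4 are near the share over all tested genes. Their estimates ran from -1.08 (Csf1r) to 3.80 (Cd14), 6 positive and 4 negative. The whole macrophage list summed to 169 to 200 FPKM in cisplatin and 91.0 to 110 FPKM in control kidneys, with Itgam at 0 in both groups. All 3 tested of 12 neutrophil genes rose (sum 22.4 to 36.5 FPKM in cisplatin and 3.13 to 4.41 FPKM in control kidneys, with Mpo and Elane at 0 in both). Of 2 tested lymphocyte genes 1 fell (sum 3.05 to 3.61 FPKM in cisplatin and 8.27 to 12.3 FPKM in control kidneys), and all 6 tested erythroid genes fell (1.91 to 7.95 FPKM in cisplatin and 330 to 1198 FPKM in control kidneys). Of 8 tested adipocyte genes 2 rose (sum 72.5 to 132 FPKM in cisplatin and 30.6 to 124 FPKM in control kidneys). The part of these shifts in the ribosomal protein changes was not tested.

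The cisplatin+PCN and cisplatin groups were compared to ask whether the PXR activator altered the response. Most members had lower estimates in cisplatin+PCN kidneys, but the number that passed depended on the libraries fitted, the filter and the scaling. In limma's test on all 12 libraries none rose and 52 of 84 fell; of all tested genes 7.97% rose and 7.61% fell. The median change was -0.26 over the members and 0.00 over all tested genes, and 80 of the 84 estimates were negative. Cisplatin+PCN libraries lay below cisplatin libraries without overlap in 74 members, against 14.6% of all tested genes. When the 6 libraries compared were fitted alone, no member passed (62 had an unadjusted p under 0.05, smallest adjusted p = 0.117, limma), and 1 of all tested genes fell. The share of all tested genes under that unadjusted threshold was not computed. Without cisplatin replicate 3 the count was 12, without cisplatin+PCN replicate 3 it was 23 and without cisplatin replicate 1 it was 25. With libraries rescaled to equal sums it was 22, and it was 26 after quantile scaling, 31 with no expression filter and 32 after rescaling that left out the mitochondrially encoded genes and the 50 highest. The cisplatin libraries are the same ones that entered the comparison with control.

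The largest decreases among members that passed on 12 libraries were those of Rps12, Rpl39 and Rplp2. Rps12 had 52.4, 72.6 and 69.9 FPKM in cisplatin+PCN and 86.8, 103 and 109 FPKM in cisplatin kidneys (-0.62 ± 0.12, adjusted p = 0.0135, limma). Its groups did not overlap, and cisplatin+PCN replicate 1 was the lowest of them. Rpl39 had 105, 118 and 121 FPKM in cisplatin+PCN and 159, 156 and 161 FPKM in cisplatin kidneys, well apart (-0.47 ± 0.08, adjusted p = 0.00801, limma). Rplp2 had 109, 119 and 121 FPKM in cisplatin+PCN and 157, 162 and 157 FPKM in cisplatin kidneys (-0.44 ± 0.06, adjusted p = 0.00656, limma). Rplp0 fell by 0.34, Rplp1 by 0.33 and Rps19 by 0.31. The small subunit had 24 of 31 genes lower and the large subunit with its stalk 27 of 46, with medians of -0.27 and -0.26.

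Members named above that did not pass this comparison include both genes of the Rps27 pair. Rps27l had 403, 416 and 449 FPKM in cisplatin+PCN kidneys against 501, 474 and 506 FPKM in cisplatin kidneys (-0.22 ± 0.07, adjusted p = 0.056, limma). The libraries did not overlap. Rps27 had 236, 197 and 201 FPKM in cisplatin+PCN and 249, 237 and 259 FPKM in cisplatin kidneys (-0.24 ± 0.08), with replicate 1 of cisplatin+PCN close to the cisplatin range. The Rpl10 groups were apart but close, at 268, 270 and 269 FPKM in cisplatin+PCN and 283, 295 and 282 FPKM in cisplatin kidneys (-0.09 ± 0.07). The 4 members with estimates above 0 were Rpl7l1 (0.24), Rps6kc1 (0.08), Rpl3l (0.06) and Rpl7a (0.00), and none of them passed.

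The median core level of cisplatin+PCN replicate 1 was 0.28 above the control mean on the log2 scale, against 0.33 in replicates 2 and 3. The cisplatin libraries had medians of 0.56, 0.57 and 0.62 above control. Among the other lists, Rack1 (-0.32), Pabpc1 (-0.38), Eif6 (-0.48), Eif4ebp1 (-1.04) and Myc (-0.71) were lower in cisplatin+PCN kidneys in limma's test on 12 libraries. Of all tested genes 7.97% were higher and 7.61% lower. Of 14 translation genes with the tract 5 were lower, of 30 initiation factors 6 and of 47 biogenesis factors 3. Of 16 RNA polymerase I genes 2 were lower, and of 23 mTORC1 genes 2. None of these lists had a gene higher. The counts of lower biogenesis factors and mTORC1 genes are near the share over all tested genes. Of 11 genes of the Mdm2 and p53 axis 2 were lower and 1, Rrm2b (0.36), was higher. In the same test 8 of 13 proximal tubule genes were higher and 3 of 77 mitochondrial ribosomal protein genes were higher, with 2 lower. Of 10 tested macrophage genes 1 was higher and 1 lower, and the list summed to 109 to 159 FPKM in cisplatin+PCN and 169 to 200 FPKM in cisplatin kidneys. The part of these differences in the ribosomal protein decreases was not tested.

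**Figure D4:**
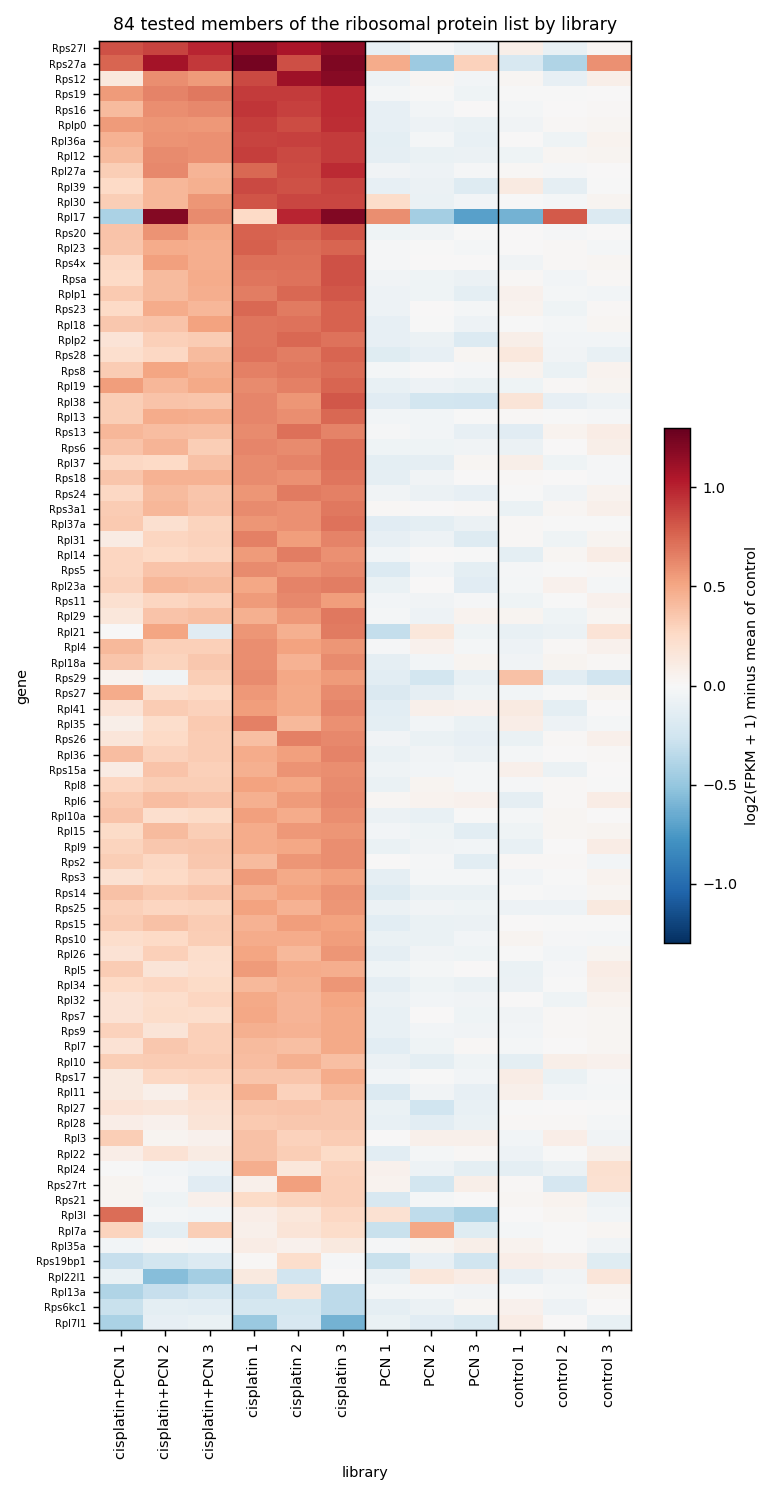
Level of the 84 tested members in each of the 12 libraries, as log2(FPKM + 1) minus the control mean, with genes ordered by the cisplatin change. Red is above and blue below control; the cisplatin columns are the most red, the cisplatin+PCN columns are paler, and the PCN columns stay near the control level except for a few variable genes such as Rps27a and Rpl17.

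Against control, cisplatin+PCN kidneys still had raised ribosomal protein transcripts. Of the 84 members 65 rose, 3 fell and 16 did not pass limma's test, where 23.0% of all tested genes rose and 23.6% fell. The median change was 0.31. The largest increases were those of Rps27a (0.92), Rps27l (0.90), Rps19 (0.63) and Rplp0 (0.56). Rpl22l1 fell by 0.36 on the log2 scale, with 15.9, 11.3 and 12.2 FPKM in cisplatin+PCN and 15.7, 16.4 and 19.0 FPKM in control kidneys, which overlap (adjusted p = 0.0435, limma). Rpl13a fell by 0.31 (adjusted p = 0.0407, limma) and Rps19bp1 by 0.24 (adjusted p = 0.0488, limma). These falls lay close to the threshold, and no member fell when cisplatin+PCN replicate 2 or 3, PCN replicate 2 or 3 or control replicate 1 or 2 was left out, or with no expression filter. Rpl11, Rpl22 and Rpl3 did not pass here (0.14, 0.13 and 0.14).

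PCN alone left the members near control. None of the 84 passed limma's test of PCN against control, and none of all tested genes did (0%). In limma's test 3 members had an unadjusted p under 0.05, all lower. With limma-voom on the recovered reads the count was also 0, and 2 members had an unadjusted p under 0.05, both lower. How many of all tested genes were under that unadjusted threshold was not computed. The estimates leaned one way: 75 of 84 were negative, with a median of -0.06, and PCN libraries lay below control libraries without overlap in 20 members, against 7.18% of all tested genes. Rplp2, for one, had 88.9, 90.7 and 84.9 FPKM in PCN and 101, 93.4 and 93.5 FPKM in control kidneys, groups that do not overlap (-0.12 ± 0.06, adjusted p = 1, limma).

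The comparison of cisplatin+PCN with PCN kidneys gives the cisplatin effect under PCN. Its group means come from other libraries than those of cisplatin against control. The spread in both comparisons comes from the same fit of 12 libraries, so their p-values and counts are not independent. Of 84 members 68 rose, 1 fell (Rpl22l1, by 0.42) and 15 did not pass limma's test, where 23.5% of all tested genes rose and 23.4% fell. The median change was 0.37. Rps27l had 403, 416 and 449 FPKM in cisplatin+PCN and 210, 224 and 214 FPKM in PCN kidneys, and again had the largest change (0.97, adjusted p = 2.41e-06, limma). Rps27a (0.81), Rps19 (0.66) and Rplp0 (0.64) followed among the members that passed. The core genes kept much of their order between the 2 cisplatin effects: over the 77 genes the Pearson correlation was 0.886 and Spearman's 0.814, a description across genes that share libraries within each effect. Every one of the 77 had the larger estimate without PCN, with medians of 0.37 with and 0.57 without PCN.

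The interaction of cisplatin and PCN tests that difference gene by gene. No member passed in either direction (limma, smallest adjusted p = 0.121, that of Rpl23, at -0.30 ± 0.08), against 0.0739% of all tested genes above and 0.0369% below. At an unadjusted p under 0.05, 37 members were lower and 1 was higher. The lower count was 23 after rescaling without the 50 highest and mitochondrially encoded genes, 16 after quantile scaling and 15 when rescaled to equal sums. The share of all tested genes at that unadjusted threshold was not computed, so these counts cannot be set against it. At the adjusted threshold limma-voom on recovered reads called no member. The median of the interaction was -0.21, and 81 of 84 estimates were negative. The 3 positive ones were those of Rpl7l1 (0.38), Rpl3l (0.24) and Rps6kc1 (0.14), none of them a core gene.

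**Figure D5:**
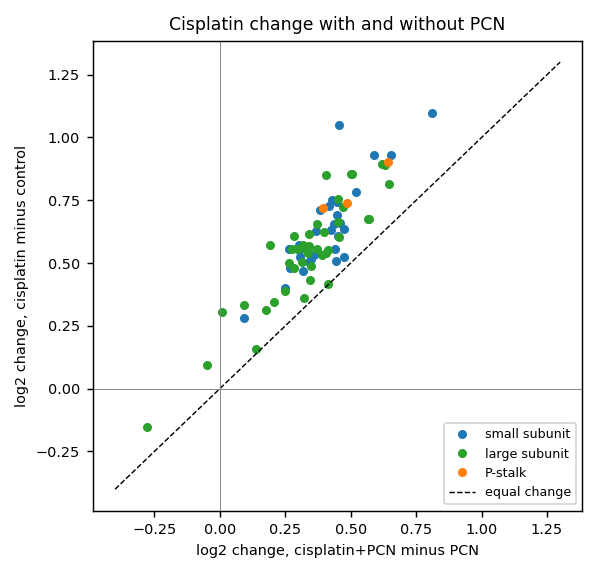
Cisplatin change of the 77 core genes without PCN (cisplatin minus control, vertical) against that with PCN (cisplatin+PCN minus PCN, horizontal), both on the log2(FPKM + 1) scale. Each point is a gene, coloured by subunit; all 77 points lie above the dashed line of equal change.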

How the data were processed

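Kidney RNA was sequenced in 12 libraries, 3 in each of 4 groups taken from the library titles. The values are FPKM in 1 gene table that the authors deposited. The submitters' processing notes name HISAT2 2.0.5, featureCounts 1.5.0-p3, DESeq2 1.16.1 and edgeR 3.18.1, and build mm8. All 88 members are in GENCODE M21 for GRCm38, 78 with the same coordinates, so coordinates are read as GRCm38. The sources used here do not state strandedness, and reads of overlapping genes therefore cannot be told apart.

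FPKM times gene length gave whole reads. The totals implied by the deposited FPKM were 0.952 to 1.11 times the recovered totals, for a reason not stated. Median-of-ratios scaling changed the results little: the members' cisplatin median was 0.557 with and without it, with 74 higher and 2 lower. The deposited values already lay near that scaling, so it is not an independent alternative. The median over all tested genes, near 0 as deposited, depends on the scaling. The 13540 genes that reached 1 FPKM in 3 or more libraries were tested on log2(FPKM + 1) with limma 3.58.1 (R 4.3.3), with an intensity trend, in 1 fit of 12 libraries and 4 group means. Tests were two-sided with Benjamini-Hochberg adjustment over all tested genes within each of 6 comparisons, and a gene passed at an adjusted p under 0.05. For low genes this scale makes a fold change look smaller than it is. The procedure was tested on simulated data. Shared windows are stretches of 100 bases of a member's transcripts that also occur in another GENCODE M21 gene. Figures used matplotlib 3.10.9.

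The members and gene lists were chosen with earlier results of these data known. The rule for named genes took, per comparison, the members with the largest changes (up to 10 a direction) that passed and whose groups do not overlap, all paralogues and names that are not ribosomal proteins, a panel of 17 core genes, and up to 3 genes of each list. Other names were chosen after their values were seen, among them the core genes that did not pass the cisplatin comparison, Rpl24 and Rps21. One gene of the ribosomal components outside the naming rule is not reported here. Results were recomputed with a pseudocount of 0.1 or 0.5, with the filter dropped or set to a mean of 5 FPKM, under 4 other scalings, with limma-voom on recovered reads, with a replicate block, with only the groups compared, with each library left out, and without members that share 50% or more of their windows.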

Additional observations from a re-analysis of the deposited data

Results flagged for a closer look

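For Rpl35a, a large-subunit gene, the estimated cisplatin change was negative with PCN and positive without it, and neither passed limma's test. It had 57.5, 59.4 and 58.0 FPKM in cisplatin+PCN and 58.4, 60.4 and 62.1 FPKM in PCN kidneys, and 63.1, 61.1 and 64.2 FPKM in cisplatin and 60.8, 58.5 and 57.1 FPKM in control kidneys. The cisplatin change was -0.05 with PCN and 0.09 without it on the log2(FPKM + 1) scale. The interaction was -0.14 ± 0.08 and did not pass limma's test (adjusted p = 0.351).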

How the results depend on the processing

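For cisplatin against control, 73 to 76 members rose under every alternative that kept all members (55 when those with 50% or more of their windows shared were left out, added after seeing the data, with 42 still lower in cisplatin+PCN against cisplatin), and the number that fell was 1 with a mean FPKM of at least 5, 0 when rescaled to equal sums (an alternative added after seeing the data) and 2 to 3 with 1 library left out. The median was 0.62 after quantile scaling, 0.70 when rescaled to equal sums, where the median of all tested genes also moved, to 0.13, and 0.53 to 0.59 with 1 library left out. For cisplatin+PCN against cisplatin, 12 to 52 members fell and 0 to 1 rose with 1 library left out; 31 fell with no filter, 26 after quantile scaling, 32 (median -0.24) after rescaling without the 50 highest and mitochondrially encoded genes, 22 when rescaled to equal sums and 0 when only the groups compared were fitted, which leaves fewer libraries for the spread. For cisplatin+PCN against control, 0 to 3 fell with 1 library left out, 0 with no filter or rescaled to equal sums, and 1 when rescaled without the highest genes or with only the groups compared; the median was 0.38, 0.45 and 0.34 under quantile, equal-sum and highest-gene rescaling. For cisplatin+PCN against PCN, 0 to 2 fell with 1 library left out, 0 with no filter, and 2 under quantile scaling or with only the groups compared; the median was 0.44 under quantile scaling and 0.52 when rescaled to equal sums. The interaction had 0 to 1 lower with 1 library left out. As a share of recovered reads instead of FPKM, the differences in percentage points were 1.22 for cisplatin and 0.685 for cisplatin+PCN against control, -0.0882 in PCN kidneys against control, 0.774 in cisplatin+PCN against PCN and -0.538 in cisplatin+PCN against cisplatin; without the 50 highest and mitochondrially encoded genes the cisplatin difference was 2.47. The cause of these moves was not tested.

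When rescaled to equal sums, 61.9% of all genes called for cisplatin against control were higher, against 50.1% as deposited; the shares were 67.5 and 49.3% for cisplatin+PCN against control and 69.2 and 50.03% for cisplatin+PCN against PCN. Rescaled without the highest genes, it was 64.8 and 51.1% for cisplatin+PCN against cisplatin and 77.3 and 66.7% of few calls for the interaction. Estimates near 0 changed sign for Rpl22l1 with cisplatin (0.10 when rescaled to equal sums, and -0.12 to 0.065 with 1 library left out), for Rps19bp1 with cisplatin (-0.00055 to 0.12) and for Rpl3l in cisplatin+PCN against cisplatin (-0.19 to 0.18). Of 18 same-numbered pairs of libraries 4 correlated over 0.1 in their deviations from the group means (range -0.281 to 0.366). These were replicates 1 and 2 of cisplatin+PCN with cisplatin and of PCN with control. Differently numbered pairs were not computed, so whether the replicate numbers pair the libraries was not settled. With the replicate number as a block, 42 members fell in cisplatin+PCN against cisplatin, 64 rose and 2 fell in cisplatin+PCN against control, and the other counts did not change. Rpl24, Rpl3l and Rps6kc1 rest on few reads, and members with shared windows on how reads with several matches were counted.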

Other observations

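The table also holds 276 rows named as pseudogenes of ribosomal protein genes, of which 74 passed the expression minimum. With cisplatin 38 of these rose and 1 fell against control in limma's test, against 32.0% higher and 31.9% lower of all tested genes, with a median change of 0.50. In cisplatin+PCN against cisplatin kidneys 1 rose and 5 fell, with a median of -0.32; of all tested genes 7.97% rose and 7.61% fell in that comparison, so neither count is above the share over all genes. Rps16-ps2, a processed pseudogene, had 107 ± 8.99 FPKM in cisplatin+PCN, 137 ± 7.88 in cisplatin, 71.7 ± 6.43 in PCN and 68.5 ± 11.4 FPKM in control kidneys (SD, n = 3 each). Its change with cisplatin was 1.001 (adjusted p = 3.37e-05, limma), beside 0.93 for Rps16 itself. Rps10-ps2 changed by 0.56, beside 0.50 for Rps10. Rpl17-ps10, the most abundant of these rows, had 227 ± 89.6 FPKM in cisplatin+PCN, 277 ± 68.8 in cisplatin, 213 ± 62.0 in PCN and 198 ± 69.4 FPKM in control kidneys. Like Rpl17, this row was widely spread between libraries, though relative to its mean less so than Rpl17. The sources used here do not state how reads matching both a gene and its copies were divided.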
